A study of Mus musculus with 4 samples.

Results

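The genes described here are 9 genes for the receptors and regulators that guide thymocytes through the thymus and out of it: *Ccr4*, *Ccr7*, *Ccr9*, *Cxcr4*, *S1pr1*, *Gpr183*, *Plxnd1*, *Coro1a* and *Cd24a*. They were taken by symbol from the 24421 genes in the expression table, and all 9 were found and passed the filter for low values (at least 1 FPKM in 2 or more samples), which left 10776 genes. FPKM count sequenced fragments relative to the length of the gene and the depth of the sample. The RNA came from FACS-sorted CD69+DP thymocytes (CD69+CD4+CD8+ cells, which have received a TCR signal and begun positive selection) of C57BL/6 mice aged 6 weeks. There were 2 control samples from Foxa1fl/flFoxa2fl/fl CD4Cre- mice and 2 Foxa1/2cKO samples from Foxa1fl/flFoxa2fl/fl CD4Cre+ mice, so that both groups carried the floxed alleles. Samples came from separate mice and separate sorts, and each sort used 2 mice per genotype. Cre was under the *Cd4* promoter, which is active from the DP stage, so the deletion of these transcription factors is directed at DP cells and their progeny and not at the stroma. *Foxa1* and *Foxa2* were listed at 0 FPKM in all 4 samples, controls included, so these values do not check the deletion. The reads recovered on listed genes were between 10396462 and 14482115 per sample.

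Developing T cells move between the cortex and the medulla of the thymus under the guidance of chemokine receptors. DP cells are held in the cortex by CXCR4 and CCR9, whose ligands CXCL12 and CCL25 are made by the stroma. After positive selection, cells gain CCR4 and then CCR7 and enter the medulla, where their ligands are made, and PLXND1, the receptor for SEMA3E, takes part in this movement. Mature SP cells express the transcription factor KLF2 and the sphingosine 1-phosphate receptor S1PR1, which draws them into the blood. CD69, the protein by which these cells were sorted, binds S1PR1 and keeps it off the cell surface.

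None of the 9 genes passed the test of the genotypes, and for each of them Foxa1/2cKO 2 lay outside both controls while Foxa1/2cKO 1 lay near them for most. In Foxa1/2cKO 2, *Ccr7* and *S1pr1* were at 44.9% and 48.8% of the control mean, whereas *Cxcr4* and *Ccr9* were at 162% and 151% of it. In Foxa1/2cKO 1 the same 4 genes were at 99.8%, 102%, 96.2% and 75.8% of the control mean. For all 9 genes the 2 Foxa1/2cKO samples differed by more than the genotype means did, and the fold change of each of the 9 is given below with and without Foxa1/2cKO 2. Log2 fold changes are Foxa1/2cKO minus control on log2(FPKM + 1), with p-values of limma adjusted by Benjamini-Hochberg over all genes tested. In bulk samples such as these, fewer cells of a type and less RNA per cell cannot be told apart.

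Promoters of members that stood apart in Foxa1/2cKO 2 are shown because the deleted factors bind the forkhead motif and KLF2 belongs to a family that binds CACCC sequences. The RefSeq promoters (250 bases before to 50 after a RefSeq transcript start, GRCm38.p6) included *Ccr9*, *Cxcr4*, *Ccr4*, *Plxnd1*, *Gpr183* and *Coro1a*. They had no entry for *Ccr7*, *S1pr1* and *Cd24a*. For *Ccr9*, *Ccr4* and *Coro1a* these windows lie inside the gene spans given below, which come from another annotation, GENCODE. Capitals mark a match on either strand to the forkhead motif TGTTTAC, to its variant TGTTTGC, to its further variant TATTTAC, or to the motif of KLF factors, CCACCC. *Cxcr4* and *Ccr9* are shown as the receptors highest against control in Foxa1/2cKO 2, and *Gpr183* as a receptor that was lower there.
Cxcr4 (chr1:128592250-128592549, minus strand): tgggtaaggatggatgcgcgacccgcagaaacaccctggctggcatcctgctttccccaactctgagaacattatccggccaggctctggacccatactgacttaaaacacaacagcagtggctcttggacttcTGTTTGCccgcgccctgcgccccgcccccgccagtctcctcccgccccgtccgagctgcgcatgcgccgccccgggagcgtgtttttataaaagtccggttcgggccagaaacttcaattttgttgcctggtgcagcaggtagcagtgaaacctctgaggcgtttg
Ccr9 (chr9:123766961-123767260, plus strand): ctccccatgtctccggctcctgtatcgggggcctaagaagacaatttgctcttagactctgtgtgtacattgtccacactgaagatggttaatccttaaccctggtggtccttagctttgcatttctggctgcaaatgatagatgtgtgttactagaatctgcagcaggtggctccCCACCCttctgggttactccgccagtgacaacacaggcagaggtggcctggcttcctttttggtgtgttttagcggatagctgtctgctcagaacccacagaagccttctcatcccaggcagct
Gpr183 (chr14:121965144-121965443, minus strand): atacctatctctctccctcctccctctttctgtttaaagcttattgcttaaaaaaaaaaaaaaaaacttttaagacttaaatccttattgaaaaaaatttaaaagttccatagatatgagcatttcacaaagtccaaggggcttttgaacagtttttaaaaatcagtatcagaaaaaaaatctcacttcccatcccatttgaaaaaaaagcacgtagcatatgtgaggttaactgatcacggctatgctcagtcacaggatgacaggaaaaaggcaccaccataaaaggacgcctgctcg
The *Cxcr4* window held TGTTTGC at position -116 from the RefSeq transcript start, 20 CpG and 59.3% GC. The *Ccr9* window held CCACCC at -74, 4 CpG and 51.3% GC. The *Gpr183* window held neither kind of motif, 4 CpG and 35.3% GC, and the *Ccr4* and *Plxnd1* windows held neither motif. *Coro1a* had 2 windows, with 3 and 1 matches to the KLF motif on either strand and none to the forkhead motifs. Of 32851 RefSeq promoters of the same length, 11.2% held at least 1 of the 3 forkhead motifs, 5.07% held TGTTTGC and 31.5% held the KLF motif. These matches describe the letters in the window and no binding was measured.

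The levels of the 9 genes covered a wide range in CD69+DP cells. Since FPKM are scaled per kilobase of gene, levels can be compared between genes. *Coro1a* had the highest control mean, 970 FPKM, followed by *Ccr9* at 325 and *Cd24a* at 132. *Cxcr4* (95.2), *Ccr7* (87.1), *Plxnd1* (82.7) and *Ccr4* (77.0) followed, and between neighbours in this run of 4 the 2 controls of one gene overlapped those of the next. *Gpr183* (17.5) and *S1pr1* (13.1) were lowest and did not overlap each other. The first 3 and the last 2 places were the same in all 4 samples. *Ccr7* took place 4 in control 2, place 5 in Foxa1/2cKO 1 and place 7 in both control 1 and Foxa1/2cKO 2.

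**Figure D1:**
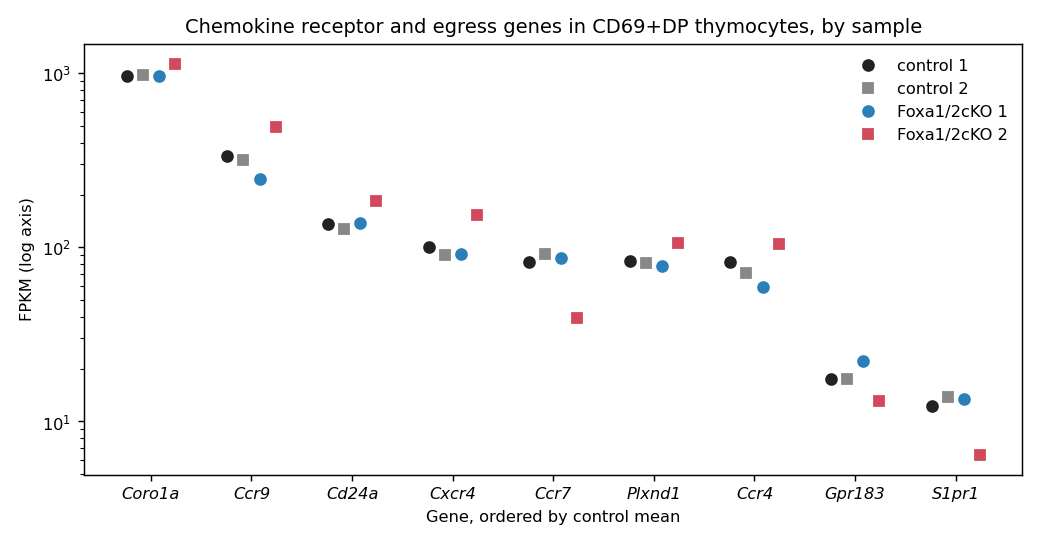
FPKM on a log axis for the 9 genes, ordered by control mean, with 1 point per sample. Foxa1/2cKO 2 (red squares) is lowest of the 4 samples for Ccr7, Gpr183 and S1pr1 and highest for the other 6 genes.

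*Cxcr4* encodes the receptor for CXCL12 and lies at chr1:128588199-128592293 (minus strand; coordinates here and below are of GRCm38, the same assembly as mm10, from GENCODE M21). It was at 100.03 FPKM in control 1 and 90.3 in control 2, with 91.6 for Foxa1/2cKO 1 and 154.0 for Foxa1/2cKO 2. Foxa1/2cKO 1 lay between the controls and Foxa1/2cKO 2 above both. These values rest on 2716, 2225, 1794 and 3100 reads, and the exact Poisson intervals at 95% confidence were 149 to 159.6 FPKM for Foxa1/2cKO 2 and 96.3 to 104 FPKM for control 1. Over the genotypes the log2 fold change was 0.32 (SE 0.26, limma, adjusted p = 0.863). Without Foxa1/2cKO 2 it was -0.05, and without Foxa1/2cKO 1 it was 0.69.

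*Ccr9* encodes the receptor for CCL25 and lies at chr9:123678439-123784330 (plus strand). It was at 333.6 and 316.8 FPKM in the controls and at 246.6 (Foxa1/2cKO 1) and 489.7 (Foxa1/2cKO 2). The 2 Foxa1/2cKO samples lay on opposite sides of the controls, and the groups overlapped. Between the genotypes the log2 fold change was 0.10 (SE 0.33, limma, adjusted p = 0.964), and it reversed to -0.40 without Foxa1/2cKO 2. Without Foxa1/2cKO 1 it was 0.59. The values rest on at least 3655, 3148, 1949 and 3977 reads, since the reads of a gene are known up to a common multiple. Other annotated genes, among them *Slc6a20a* on the opposite strand, overlap 21.5% of its exonic bases, and whether strand was used in counting genes is not given in the sources used here.

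*Ccr4*, at chr9:114490316-114504916 (minus strand), encodes the receptor for CCL17 and CCL22 and is gained early after positive selection. It was at 82.5 and 71.5 FPKM in the controls and at 59.6 (Foxa1/2cKO 1) and 104.0 (Foxa1/2cKO 2). As for *Ccr9*, Foxa1/2cKO 1 was below both controls and Foxa1/2cKO 2 above both. Its log2 fold change was 0.04 (SE 0.28, limma, adjusted p = 0.986), and without Foxa1/2cKO 2 it was -0.36. It was also negative without control 2, at -0.07. Without Foxa1/2cKO 1 it was 0.43.

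*Ccr7*, at chr11:99144196-99155077 (minus strand), encodes the receptor for CCL19 and CCL21, which leads positively selected cells into the medulla. It was at 82.5 and 91.7 FPKM in the controls and at 86.9 (Foxa1/2cKO 1) and 39.1 (Foxa1/2cKO 2). Foxa1/2cKO 1 lay between the controls and Foxa1/2cKO 2 below both. The reads were 2438, 2459, 1853 and 857, and the counting intervals of Foxa1/2cKO 2 (36.5 to 41.8 FPKM) and Foxa1/2cKO 1 (83.0 to 90.9 FPKM) did not overlap. For the genotypes the log2 fold change, the largest of the 9 in size, was -0.57 (SE 0.38, adjusted p = 0.863). It was -0.00 without Foxa1/2cKO 2 and -1.13 without Foxa1/2cKO 1, so Foxa1/2cKO 2 alone gave the difference between the means.

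*Plxnd1*, at chr6:115954811-115995005 (minus strand), was at 83.5 and 81.9 FPKM in the controls and at 78.0 (Foxa1/2cKO 1) and 106.4 (Foxa1/2cKO 2). The Foxa1/2cKO samples lay on opposite sides of the controls. Its log2 fold change was 0.14 (SE 0.16, limma, adjusted p = 0.881), with -0.08 without Foxa1/2cKO 2 and 0.36 without Foxa1/2cKO 1.

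*S1pr1*, at chr3:115710433-115715072 (minus strand), was at 12.3 and 13.9 FPKM in the controls and at 13.4 (Foxa1/2cKO 1) and 6.40 (Foxa1/2cKO 2). Foxa1/2cKO 2 was below both controls and Foxa1/2cKO 1 lay between them. It had the fewest reads of the 9 genes, 559, 571, 438 and 215, and the interval of Foxa1/2cKO 2 (5.57 to 7.31 FPKM) lay below those of the other 3 samples, which began at 11.3 FPKM or higher. Between the genotypes it had a log2 fold change of -0.45 (SE 0.33, adjusted p = 0.863). It was 0.03 without Foxa1/2cKO 2 and -0.93 without Foxa1/2cKO 1.

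*Gpr183* encodes EBI2, an oxysterol receptor that positions lymphocytes and dendritic cells, and lies at chr14:121952551-121965195 (minus strand). It was at 17.4 and 17.5 FPKM in the controls and at 22.4 (Foxa1/2cKO 1) and 13.1 (Foxa1/2cKO 2), so the Foxa1/2cKO samples lay on opposite sides. Its log2 fold change was -0.02 (SE 0.25, limma, adjusted p = 0.989), 0.34 without Foxa1/2cKO 2 and -0.38 without Foxa1/2cKO 1. B cells and dendritic cells also express *Gpr183*. The FPKM of 6 B-cell markers summed to 76.2 and 50.6 in the controls and to 104 (Foxa1/2cKO 1) and 54.4 (Foxa1/2cKO 2). Each of the 5 tested was highest in Foxa1/2cKO 1, where *Gpr183* was highest too. The 2 controls were alike for *Gpr183* (17.4 and 17.5) but not for this sum. The FPKM of 9 myeloid and dendritic markers summed to 37.5, 21.1, 40.3 and 21.0 in the same order. The part of these cells in the *Gpr183* values was not tested.

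*Coro1a* encodes coronin 1A, an actin regulator needed for T cells to leave the thymus and survive, and lies at chr7:126699773-126707787 (minus strand). It was at 963.5 and 976.9 FPKM in the controls and at 970.2 (Foxa1/2cKO 1) and 1138.8 (Foxa1/2cKO 2). Only Foxa1/2cKO 2 lay outside the controls. For the genotypes the log2 fold change was 0.12 (SE 0.12, limma, adjusted p = 0.870), 0.00 without Foxa1/2cKO 2 and 0.23 without Foxa1/2cKO 1.

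*Cd24a* encodes the heat-stable antigen, which is high on immature thymocytes and is lost as SP cells mature, and lies at chr10:43578284-43584265 (plus strand). It was at 136.6 and 128.2 FPKM in the controls and at 138.3 (Foxa1/2cKO 1) and 183.8 (Foxa1/2cKO 2). This was the only gene of the 9 whose groups did not overlap, by the margin between Foxa1/2cKO 1 and control 1, whose counting intervals overlapped (133 to 144 and 132 to 141 FPKM). Groups did not overlap for 36.7% of all genes tested. Its log2 fold change was 0.27 (SE 0.16, limma, adjusted p = 0.863), 0.06 without Foxa1/2cKO 2 and 0.47 without Foxa1/2cKO 1. Another gene, *Gm6212*, holds 3.90% of the 50-base stretches of *Cd24a*.

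Across the set, 0 of the 9 genes passed an adjusted p of 0.05 in the limma test of the genotypes, against 0.00928% of all genes tested (1 gene). At an unadjusted p under 0.05 the count was 0 of 9 against 4.55% of all genes, and limma-voom on recovered reads also gave 0 of 9 by either threshold. For a single gene, the exact permutation test of 2 samples against 2 cannot go below a two-sided p of 0.333. Without Foxa1/2cKO 1, all 9 genes passed an adjusted p of 0.05, against 23.7% of all genes. That fit sets 1 sample against 2 and assumes that the lone sample varies as the controls do. Without Foxa1/2cKO 2, 0 of 9 passed, against 0.176% of all genes, and 3 of 9 had an unadjusted p under 0.05, against 17.5%.

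Each Foxa1/2cKO sample was also set against both controls, with no test. Foxa1/2cKO 2 lay outside both controls for 9 of 9 genes, against 85.9% of all genes, so that lying outside was common for that sample. It was above both for 6 genes and below both for 3, where 46.3% and 39.6% of all genes were above and below. Foxa1/2cKO 1 lay outside both controls for 5 of 9, against 77.1%. The samples lay on opposite sides of the controls for 4 of 9 genes (*Ccr9*, *Ccr4*, *Plxnd1* and *Gpr183*), against 31.4%. A distance of more than 0.5 from the control mean on log2(FPKM + 1), a limit chosen after the values were seen, was reached in Foxa1/2cKO 2 by *Ccr7*, *S1pr1*, *Cxcr4* and *Ccr9*, 4 of 9 against 12.0% of all genes. In Foxa1/2cKO 1 it was reached by 0 of 9, against 3.24%.

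The median distance between the 2 Foxa1/2cKO samples was 0.74 log2 units for the 9 genes and 0.20 for all genes tested. The median distance between the 2 controls was 0.09 and 0.08. From the control mean, Foxa1/2cKO 2 was at a median distance of 0.47 for the 9 genes and 0.18 for all genes, and Foxa1/2cKO 1 at 0.06 and 0.11. The median log2 fold change of the genotypes was 0.10 for the 9 genes and 0.01 for all genes.

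**Figure D2:**
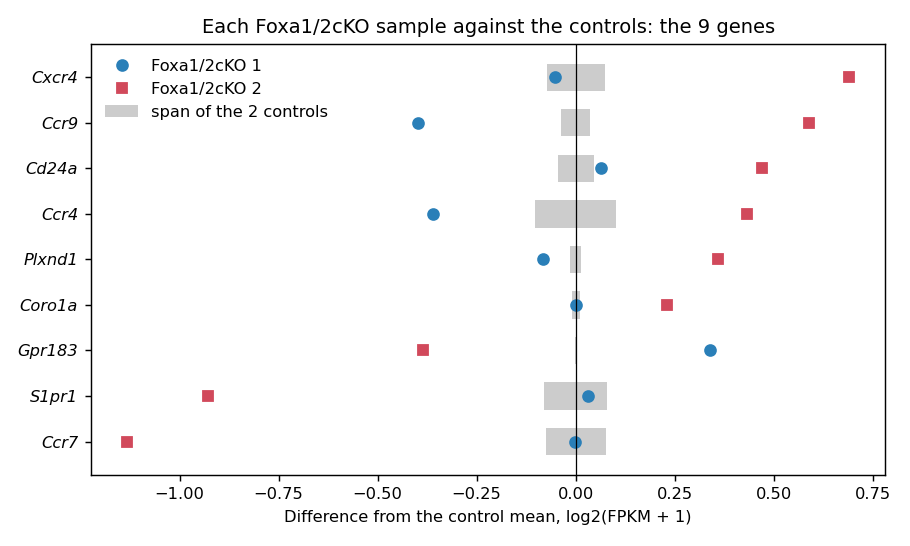
Difference of each Foxa1/2cKO sample from the control mean on log2(FPKM + 1) for the 9 genes, with the span between the 2 controls in grey. Foxa1/2cKO 2 (red squares) runs from -1.13 for Ccr7 to 0.69 for Cxcr4, whereas Foxa1/2cKO 1 (blue circles) stays between -0.40 and 0.34.

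Ratios between these genes within a sample do not depend on how samples were scaled to each other. *Ccr9* to *Ccr7*, the receptor of the cortex to that of the medulla, was 4.04 and 3.45 in the controls, then 2.84 (Foxa1/2cKO 1) and 12.5 (Foxa1/2cKO 2). *Cxcr4* to *Ccr7* was 1.21, 0.985, 1.05 and 3.94 in the same order, so that the 2 receptors were at like levels in all samples but Foxa1/2cKO 2. *Ccr9* to *S1pr1* was 27.1, 22.8, 18.4 and 76.5. By contrast *Ccr7* to *S1pr1*, both lower in Foxa1/2cKO 2, held at 6.69, 6.60, 6.49 and 6.11, the steadiest of the 36 pairs with a highest value 1.09 times the lowest. *Ccr9* to *Ccr4*, which were on the same side of the controls in each Foxa1/2cKO sample, was 4.04, 4.43, 4.14 and 4.71. Of the 36 pairs, Foxa1/2cKO 2 had the highest ratio in 21 and the lowest in 10, with the gene of higher control mean as numerator. The pairs named here were chosen after their values were seen.

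**Figure D3:**
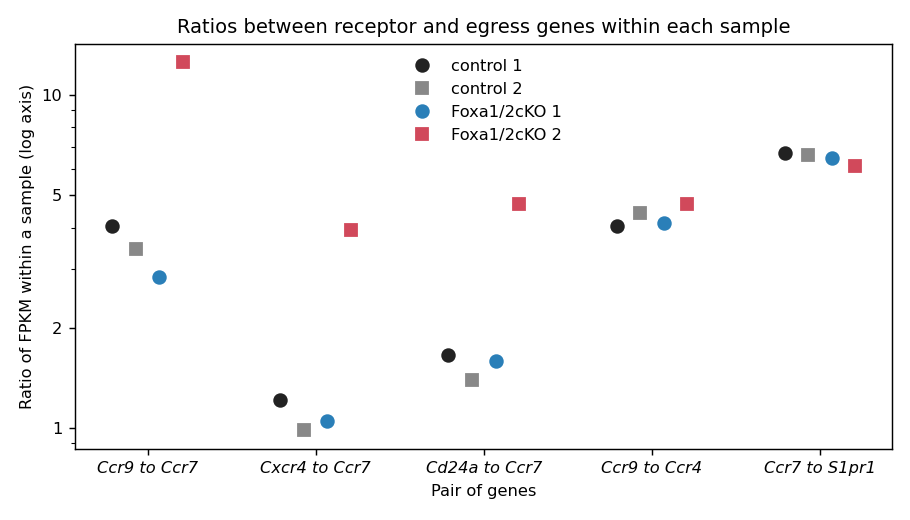
Ratio of FPKM between pairs of genes within each sample, on a log axis, with 1 point per sample. Foxa1/2cKO 2 stands apart for the ratios of Ccr9 (12.5), Cxcr4 (3.94) and Cd24a (4.70) to Ccr7, whereas the samples lie close together for Ccr9 to Ccr4 and Ccr7 to S1pr1.

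The other genes of these pathways were taken from 8 lists with 103 genes, all of which were in the expression table and 68 of which passed the filter. None of the 68 passed an adjusted p of 0.05 in limma or in limma-voom, and 2 had an unadjusted p under 0.05 in each. The groups did not overlap for 23 of 68, against 36.7% of all genes. Without Foxa1/2cKO 1, 25 of the 68 passed an adjusted p of 0.05, against 23.7% of all genes, and without Foxa1/2cKO 2, 0 of them passed.

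One of the 2 genes in limma was *Stk4*, among the 11 egress regulators. It encodes the kinase MST1, which T cells need to leave the thymus, and was at 111.6 and 108.3 FPKM in the controls and at 124.9 (Foxa1/2cKO 1) and 143.1 (Foxa1/2cKO 2) (log2 fold change 0.28, SE 0.10, adjusted p = 0.863). It was 0.18 without Foxa1/2cKO 2 and 0.38 without Foxa1/2cKO 1.

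Of the 8 egress regulators that passed the filter, Foxa1/2cKO 2 was below both controls for 4 and above both for 4. Of all genes, 39.6% were below and 46.3% above. The 4 below, chosen for mention after their values were seen, went in the same direction as *Ccr7* and *S1pr1*. *Klf2*, the transcription factor that activates *S1pr1*, was at 37.0 and 43.0 FPKM in the controls and at 43.4 (Foxa1/2cKO 1) and 17.0 (Foxa1/2cKO 2). *Il7r*, the receptor subunit for IL-7, was at 33.7, 44.1, 41.5 and 13.4 in the same order. *Foxo1*, which acts upstream of *Klf2* and *Il7r*, was at 33.0, 34.0, 32.1 and 21.2, and *Itgb7*, an integrin subunit, at 49.3, 48.7, 57.1 and 34.9. None of *Klf2*, *Il7r*, *Foxo1* and *Itgb7* passed the test of the genotypes (adjusted p from 0.863 to 0.923), and the log2 fold changes of *Klf2* (-0.53), *Il7r* (-0.68), *Foxo1* (-0.35) and *Itgb7* (-0.13) were 0.12, 0.10, -0.058 and 0.22 without Foxa1/2cKO 2. *Cd69* was at 113, 103, 107 and 121 FPKM, and *Rassf5*, the partner of MST1, was at 111, 111, 112 and 117. *H2-Q6*, *H2-Q7* and *H2-Q9*, which encode Qa2, were listed at 0 in all samples, and whether their RNA was absent was not tested.

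Of 19 other chemokine receptors 6 passed the filter. The most abundant, *Ccr8*, a receptor for CCL1, was at 20.1 and 26.3 FPKM in the controls and at 18.0 (Foxa1/2cKO 1) and 5.93 (Foxa1/2cKO 2) (log2 fold change -1.06, SE 0.50, adjusted p = 0.863). Its log2 fold change was -0.33 without Foxa1/2cKO 2 and -1.79 without Foxa1/2cKO 1. The other 5 (*Ccr2*, *Ccr6*, *Cxcr3*, *Cxcr5* and *Cxcr6*) were at 7.48 FPKM or less in every sample. Foxa1/2cKO 2 was below both controls for 5 of the 6 and above both for 0. Among the other S1P receptors, *S1pr4* was at 18.0 and 19.3 FPKM in control samples against 21.4 and 22.4 in those of Foxa1/2cKO (log2 fold change 0.22, SE 0.09, adjusted p = 0.863, and 0.19 without Foxa1/2cKO 2), so that it was not lower where *S1pr1* was lower. *S1pr2* was at 5.15, 3.85, 4.84 and 6.21.

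**Figure D4:**
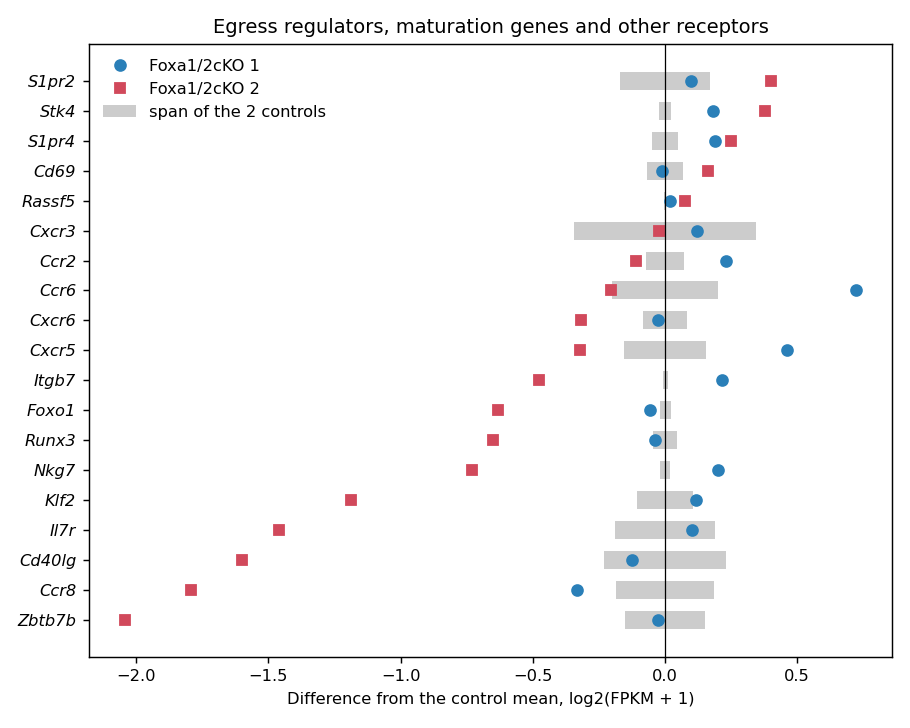
Difference of each Foxa1/2cKO sample from the control mean on log2(FPKM + 1) for egress regulators, mature SP markers and the other chemokine and S1P receptors that passed the filter, with the span of the 2 controls in grey. A gene whose results are not reported here is left out. In Foxa1/2cKO 2 (red squares) the values shown run from -2.04 for Zbtb7b to 0.40 for S1pr2. Foxa1/2cKO 1 (blue circles) lies near the controls for most genes, with Ccr6 highest.

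Of the 7 ligands of these receptors, *Ccl22* and *Ccl25* passed the filter. *Ccl22*, which is made chiefly by dendritic cells and medullary epithelium, was at 27.1 (control 1) and 13.4 FPKM (control 2) against 36.4 and 20.0 for the Foxa1/2cKO samples. Its 2 highest values were in control 1 and Foxa1/2cKO 1, as for the myeloid and dendritic sums given above, whose part in the *Ccl22* values was not tested. Of 11 genes of S1P and oxysterol metabolism 4 passed, the most abundant of which, *Sgpp1*, an S1P phosphatase, was at 15.6, 17.2, 19.1 and 15.9 FPKM. In the list of receptor signalling to actin all 32 genes passed the filter. Foxa1/2cKO 2 was above both controls for 25 and below both for 6, where 46.3% and 39.6% of all genes were. The median difference of the list from the control mean in Foxa1/2cKO 2 was small, 0.15 log2 units, with 0.02 for all genes. These sides were read from the FPKM as deposited, and their count under other scalings was not tested. The most abundant of them, *Cfl1*, which encodes the actin-severing protein cofilin, was at 1276 and 1285 FPKM in the controls and at 1033 (Foxa1/2cKO 1) and 1465 (Foxa1/2cKO 2). Of the other coronins *Coro1b* was most abundant, at 129, 132, 131 and 163 FPKM, and of the other plexins and semaphorins *Sema4d*, at 87.1, 85.9, 88.1 and 94.1. The log2 fold changes of *Ccl22*, *Sgpp1*, *Cfl1*, *Coro1b* and *Sema4d* were 0.48, 0.08, -0.06, 0.15 and 0.07, with adjusted p from 0.864 to 0.962. Without Foxa1/2cKO 2 they were 0.89, 0.21, -0.31, -0.0028 and 0.027.

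Most markers of the mature SP stage were lower in Foxa1/2cKO 2, as were *Ccr7* and *S1pr1*. Of 8 such markers, 7 passed the filter, and Foxa1/2cKO 2 was below both controls for 6 of them and above both for 1. Of all genes, 39.6% were below and 46.3% above. The median difference from the control mean was -1.19 in Foxa1/2cKO 2 and 0.10 in Foxa1/2cKO 1. *Zbtb7b*, which encodes the CD4-lineage factor ThPOK, was at 43.1, 53.4, 47.1 and 10.9 FPKM, and *Cd40lg*, the ligand of CD40, at 24.9, 34.6, 26.8 and 9.01. Summed over the list, the mature SP markers were at 240 and 277 FPKM in the controls and at 277 (Foxa1/2cKO 1) and 172 (Foxa1/2cKO 2). The 6 markers of preselection DP cells summed to 926, 988, 1022 and 996, and Foxa1/2cKO 2 was below both controls for 2 of them and above both for 3. Most of that sum came from *Rag1* and *Dntt*. *Ptcra*, the pre-TCR alpha chain, was at 11.3 and 11.9 FPKM in the controls against 7.44 for Foxa1/2cKO 1 and 3.23 for Foxa1/2cKO 2, with no overlap between the groups (log2 fold change -1.08, SE 0.34, adjusted p = 0.863, and -0.58 without Foxa1/2cKO 2). *Cd4*, *Cd8a*, *Cd8b1*, *Cd69* and the *Cd3* genes, which define the sorted cells, were all present at 103 FPKM or more. Foxa1/2cKO 2 was above both controls for 6 of these 7 and below both for 0, against 46.3% and 39.6% of all genes. The sides of these markers were read from the FPKM as deposited, and their counts under other scalings were not tested. The part of the mix of stages in the values of the 9 genes was not tested.

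Of the other cell types, 6 thymic epithelial markers summed to between 4.89 and 7.61 FPKM in every sample. Of 6 erythroid genes the 4 haemoglobin genes were listed at 0 and *Alas2* was at 0.608, 1.08, 2.62 and 0.911 FPKM. Whether the RNA of the genes listed at 0 was absent was not tested. Of 6 endothelial and mesenchymal markers only *Pecam1*, which thymocytes also express, passed the filter. The first principal component of all genes, with 65.2% of the variance, likewise set Foxa1/2cKO 2 (28.5) apart from the other 3 samples (-11.0 to -7.42).

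Genes whose values across the 4 samples were most like each receptor were found by the root mean square distance of the centred log2(FPKM + 1) values, for the 7 genes that ranged over more than 0.5. With 4 samples such likeness is a description, and many genes are near. For *Ccr7* the 3 nearest were *Tipin*, *Aurka* and *Ptgir*, at distances of 0.0140 to 0.0206 log2 units, and 135 genes lay within 0.1. For *S1pr1* they were *Dut*, *Dek* and *Nucks1*, with 144 genes within 0.1. *Dut* was at 47.5 and 52.7 FPKM in the controls and at 50.3 (Foxa1/2cKO 1) and 25.1 (Foxa1/2cKO 2), the same order of samples as *S1pr1*. For *Ccr9* they were *Cfap74*, *Trp53inp2* and *Tnk2*, with 43 genes within 0.1, the fewest of the 7. For *Ccr4* they were *Ptpn14*, *1110008P14Rik* and *Icam2*, for *Cxcr4* *Klhl6* and *Pak1* among them, for *Gpr183* *H2-T22*, *Dancr* and *Cep128*, and for *Cd24a* *Zbtb1*, *Inafm2* and *Cerk*. *Cd24a* had 1031 genes within 0.1, so that its pattern was a common one. *Plxnd1* and *Coro1a* ranged over less than 0.5.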

How the data were processed

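RNA of sorted CD69+DP cells was sequenced in 2 control and 2 Foxa1/2cKO samples. Reads were aligned by the authors to the mm10 build with its RefSeq annotation, counted per gene with HTSeq in union mode and tested with DESeq2. The authors then re-estimated the p-values from the DESeq2 z-scores with fdrtool before adjusting them. The submitters' processing notes also list TopHat and Picard. The values used are FPKM as deposited by the authors, for 24421 genes, and the step that made FPKM from the counts is not given in the sources used here. The test planned followed the authors' 2-group comparison, on a log scale because the values are FPKM. It has no fdrtool step, so its counts of genes are not on the same footing as the authors'.

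The steps between a gene's values gave whole reads, up to a common multiple, for 100% of the 16069 genes above 0 (within 0.01 of a whole number). They gave 14482115, 13070722, 10396462 and 11261898 reads on listed genes in control 1, control 2, Foxa1/2cKO 1 and Foxa1/2cKO 2. Intervals cover counting error only. Genes at 1 FPKM or more in 2 or more samples were tested on log2(FPKM + 1), which understates the change of low genes, with limma 3.58.1 in R 4.3.3 (mean-variance trend, 2 residual degrees of freedom, Benjamini-Hochberg adjustment over all 10776 genes, threshold 0.05, two-sided). The fit was also run on simulated counts with the same small spread in both groups. They do not mimic the distance between the 2 Foxa1/2cKO samples, so that run does not check the results here. Python 3.11.15 with pandas 2.3.3, scipy 1.17.1 and, for figures, matplotlib 3.10.9 made the tables.

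The 9 genes and all lists were chosen with earlier results of these data known. All 9 genes are named. Of the 8 pathway lists, those with an unadjusted p under 0.05 and no overlap between groups and the gene with the highest mean FPKM of each list are named, and for likeness the 3 nearest genes. Other list genes and markers named in the text, the within-sample ratios and the limit of 0.5 log2 units were chosen after their values were seen. Of the pathway genes, 3 were matched by an older symbol. Promoters were read from RefSeq and positions from GENCODE M21 on the same assembly. Alternatives were a pseudocount of 0.1, no filter, upper-quartile scaling, scaling to all recovered reads, a replicate block, limma-voom on the recovered reads, and leaving out each sample. Exon usage was not analysed here, and the results of 2 genes that the rule names are not reported here.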

Additional observations from a re-analysis of the deposited data

How the results depend on the processing

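For the 9 genes, the 9 log2 fold changes kept their sign and stayed over an adjusted p of 0.05 with no filter for low values, a pseudocount of 0.1, upper-quartile scaling, scaling to all recovered reads, limma-voom and a replicate block. The number of all genes past the threshold was 1, with 0 under each of those settings other than the replicate block, which gave 1, and 0 of the 9 genes. The labels do not say what same-numbered samples share, so the block pairs nothing known from them. The correlation of their deviations across all genes was -0.0587. The sums of B-cell markers and of myeloid and dendritic markers were higher in control 1 than control 2, and higher in Foxa1/2cKO 1 than Foxa1/2cKO 2. For the sum of the erythroid genes this held in the Foxa1/2cKO samples but not in the controls. What else same-numbered samples shared was not tested. Under both other scalings Foxa1/2cKO 2 stayed on the same side of the controls for all 9 genes, and Foxa1/2cKO 1 moved from between the controls to above both for *Coro1a* under upper-quartile scaling.

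Leaving out each sample in turn gave between 0 and 2559 genes past the threshold, between 0 and 9 of the 9 genes and between 0 and 25 of the pathway genes. The highest of each came without Foxa1/2cKO 1, and 19 genes passed without Foxa1/2cKO 2. Without control 1 and without control 2 the count was 0. The log2 fold changes ran from -0.40 to 0.59 for *Ccr9*, from -0.053 to 0.69 for *Cxcr4*, from -0.36 to 0.43 for *Ccr4*, from -1.13 to -0.0011 for *Ccr7*, from -0.082 to 0.36 for *Plxnd1*, from -0.93 to 0.031 for *S1pr1*, from -0.38 to 0.34 for *Gpr183*, from 6.32e-05 to 0.23 for *Coro1a* and from 0.063 to 0.47 for *Cd24a*. All of these extremes came without Foxa1/2cKO 1 or without Foxa1/2cKO 2. *Ccr4* (-0.067) also changed sign without control 2. Of the pathway genes named by rule, 4 changed sign when 1 sample was left out: *Ccl22* ran from -0.0057 (without control 2) to 0.96, *Sgpp1* from -0.040 (without Foxa1/2cKO 1) to 0.21, *Cfl1* from -0.31 to 0.19 (without Foxa1/2cKO 1) and *Coro1b* from -0.0028 (without Foxa1/2cKO 2) to 0.31. *Klf2*, *Il7r* and *Itgb7*, named after their values were seen, changed sign without Foxa1/2cKO 2 (0.12, 0.10 and 0.22), as did *Cd69* (-0.012). The cause was not tested beyond the construction of these fits, in which 1 sample stands against 2. *S1pr1*, with 215 to 571 reads, was measured with the widest counting error of the 9 genes.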
